A study of Mus musculus with 19 samples.

Results

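The 10 CC chemokine ligand genes described here are Ccl2, Ccl7, Ccl12, Ccl8, Ccl11, Ccl5, Ccl9, Ccl6, Ccl3 and Ccl4. They were taken by name from the 27998 genes listed for each library, whatever their level, and each of the 10 had at least 1 UMI (unique molecular identifier, the tag that marks 1 captured RNA molecule) in each of the 19 libraries. Together they came to between 907 and 6084 CPM (UMIs of a gene per 1000000 UMIs of a library).

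Single cells were taken from the tenotomy site of mice given a dorsal scald burn and an Achilles tendon transection (burn/tenotomy), a model of heterotopic ossification, in which bone forms outside the skeleton. The groups were day 0 (4 libraries), day 3 (3 libraries), day 7 (4 libraries), day 21 (4 libraries) and p7N3 (4 libraries). The p7N3 mice had burn/tenotomy and daily intraperitoneal p7N3, a CD47-activating peptide, at 10 mg/kg for 3 days before and 3 days after injury, and were harvested at day 7. The label of p7N3 replicate 4 leaves the harvest day out, and it was taken to be that of replicates 1 to 3. The day 0 labels also list the burn, while the study describes day 0 as uninjured, and the labels name no vehicle for the day 7 mice. Mice of the C57 and LysmCre/Tgfb1fx/fx strains are named for the series as a whole and no genotype for a library, so what genotype each library had is unknown. In LysmCre/Tgfb1fx/fx mice, Cre driven by the LysM gene of myeloid cells removes floxed Tgfb1. The labels do not say which libraries came from separate animals, so p-values measure the spread between libraries, which may be partly technical.

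CC chemokines are small secreted proteins that draw leukocytes along a gradient by binding receptors of the Ccr family. Ccl2, Ccl7, Ccl12 and Ccl8 are monocyte chemoattractant proteins, Ccl11 (eotaxin) attracts eosinophils, Ccl5 (Rantes) attracts T cells and other leukocytes, and Ccl3 and Ccl4 are macrophage inflammatory proteins that attract monocytes and other leukocytes. Ccl9 and Ccl6 are ligands of myeloid cells found in mice. After injury both macrophages and fibroblasts are known sources of such ligands.

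Levels are given as CPM, taken over a whole library or over all cells of 1 type in a library, and as mean ± SD over libraries. The 39541 cells kept were clustered without the member genes and the clusters were named from markers with the suffix "-like". Monocyte/macrophage-like cells are called macrophage-like from here on, a short name for a class that takes in monocytes too. Pericyte/smooth muscle-like cells are called mural-like. A library held 571 to 3668 cells with a median of 3414 to 12406 UMIs, and the log CPM of replicates correlated at 0.972 to 0.994. No pair of libraries shared more than 22 cell barcodes. The fewest macrophage-like cells were in the day 0 libraries, 70 to 136 each, so their sums carry the widest counting error. The 12 genes of a list that tissue digestion induces summed to 7445 to 9416 CPM in the day 0 libraries and to 3757 to 5592 CPM in the others, and their part in the comparisons with day 0 was not tested. In day 0 replicate 1, the only library with its empty droplets, 367171 barcodes of at most 100 UMIs held all 10 ligands, from 23.7 CPM for Ccl3 to 334 CPM for Ccl7. RNA outside cells therefore carried each of these ligands in that library.

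The genes lie on mouse chromosome 11 (GRCm38 coordinates from the GENCODE annotation) in a pair of groups. Ccl2, Ccl7, Ccl11, Ccl12 and Ccl8 follow each other on the plus strand from 82035571 to 82116799, a stretch of 81.2 kb. Ccl5, Ccl9, Ccl6 and Ccl3 on the minus strand and Ccl4 on the plus strand lie from 83525778 to 83664683. Promoter sequences matched 5 of the 10 genes, Ccl12, Ccl8, Ccl9, Ccl6 and Ccl3. The 250 bases before the annotated start were searched on both strands. TATAAA, the core of a TATA box, was found in 3 of the 5 (Ccl12, Ccl8 and Ccl9) and in 12.4% of 32851 promoters of that length. A kappaB motif (GGG and CC set apart by any 5 bases) was found in 1 of the 5 (Ccl9) and in 45.8% of all promoters, and the AP-1 letters TGANTCA in 1 of the 5 (Ccl9) and in 6.75%. The core of the interferon-stimulated response element (GAAA repeated after any 2 bases) was in 0 of the 5 and in 2.98%. The neighbours Ccl12 and Ccl8, and the neighbours Ccl9 and Ccl6, are shown because the levels of each pair were alike over the cell types. Sequences are from RefSeq GRCm38.p6 and run 5′ to 3′ on the strand of the gene, ending at the base before its start, with the TATA box and kappaB letters of either strand in capitals. They cover chr11:82101595-82101844 (plus strand) for Ccl12, chr11:82114935-82115184 (plus strand) for Ccl8, chr11:83578637-83578886 (minus strand) for Ccl9 and chr11:83593088-83593337 (minus strand) for Ccl6.
Ccl12: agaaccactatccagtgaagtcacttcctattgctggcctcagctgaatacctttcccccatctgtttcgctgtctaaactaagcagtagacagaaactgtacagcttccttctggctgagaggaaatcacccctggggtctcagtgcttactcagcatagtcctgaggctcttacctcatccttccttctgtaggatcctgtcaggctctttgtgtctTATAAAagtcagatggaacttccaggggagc
Ccl8: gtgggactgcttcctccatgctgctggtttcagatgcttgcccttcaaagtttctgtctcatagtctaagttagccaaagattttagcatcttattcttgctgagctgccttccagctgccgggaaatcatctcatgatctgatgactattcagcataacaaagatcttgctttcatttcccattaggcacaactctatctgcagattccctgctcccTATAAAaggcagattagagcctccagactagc
Ccl9: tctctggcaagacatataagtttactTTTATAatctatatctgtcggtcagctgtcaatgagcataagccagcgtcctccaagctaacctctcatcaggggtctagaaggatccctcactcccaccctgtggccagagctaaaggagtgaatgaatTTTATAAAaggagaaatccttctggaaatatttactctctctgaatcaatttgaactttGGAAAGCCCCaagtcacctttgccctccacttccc
Ccl6: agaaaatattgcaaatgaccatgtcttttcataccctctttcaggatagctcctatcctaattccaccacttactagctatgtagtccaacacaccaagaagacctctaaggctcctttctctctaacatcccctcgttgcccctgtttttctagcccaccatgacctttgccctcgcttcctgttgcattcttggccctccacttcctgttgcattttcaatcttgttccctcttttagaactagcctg

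The TATA box letters began 31 bases before the start in Ccl12 and 32 bases before it in Ccl8. In Ccl9 they began further off, 92, 94 and 224 bases before the start. Those at 94 and 224 bases read TTTATA, the letters of the other strand. The Ccl6 window held none of the letters in capitals. These are matches of letters, and no binding was measured.

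At the whole injury site, 9 of the 10 ligands differed between day 3 and day 0, where 74.6% of all genes tested did (edgeR quasi-likelihood test, Benjamini-Hochberg adjusted p below 0.05, as for all calls here). Ccl2, Ccl7, Ccl12, Ccl8, Ccl9, Ccl6, Ccl3 and Ccl4 rose, Ccl11 fell, and Ccl5 did not pass the test (-0.59 ± 0.38 on the log2 scale). The median log2 fold change of the 10 ligands was 3.01, and that of all genes was near 0. A whole-site level sums all cells, so more cells of a type and more RNA per cell cannot be told apart in it.

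Ccl2 was at 228, 121, 166 and 196 CPM in the day 0 libraries and at 905, 986 and 938 CPM at day 3, a log2 fold change of 2.75 ± 0.19 (SE, adjusted p = 2.27e-06). All day 3 libraries lay above all day 0 libraries. Ccl6 went from 263, 211, 178 and 149.7 CPM to 1406, 1166 and 1370.1 CPM (3.06 ± 0.18), and Ccl3 from 17.8, 14.9, 9.45 and 9.34 CPM to 169, 192 and 309 CPM (4.46 ± 0.28). Ccl3 had the steepest rise of the 10 and Ccl7 one of the highest levels, 1215, 1571 and 1241 CPM. Ccl11 moved the other way, from 373, 212, 268 and 263 CPM to 28.1, 15.2 and 22.4 CPM (-3.33 ± 0.27), again without overlap.

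At day 7, 7 ligands differed from day 0 (63.5% of all genes), 6 higher and Ccl11 lower. At day 21, 3 did (51.8% of all genes). Ccl8 was the ligand that stayed high, at 902, 652, 882 and 553 CPM at day 7 and 457, 484, 429 and 337 CPM at day 21, after 139, 89.1, 83.6 and 156 CPM at day 0 (log2 fold change at day 21 2.01 ± 0.21, adjusted p = 6.63e-05). Every day 21 library was above every day 0 library. Ccl11 was still lower at day 21 (106 ± 24.9 against 279 ± 67.6 CPM, -1.25 ± 0.20). Ccl5 was lower as well (18.5 ± 6.79 against 54.6 ± 36.0 CPM, -1.47 ± 0.42, adjusted p = 0.0138), with 108 CPM in day 0 replicate 1, and a log2 fold change of -0.86 without that library. The Ccl5 call was lost with the top 3.9% of doublet scores removed (-1.38). Ccl2 at day 7 did not pass the test (0.50 ± 0.21, adjusted p = 0.0576) but did without day 0 replicate 1 (0.67) or day 7 replicate 2 (0.59). All 3 comparisons share the day 0 libraries.

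The UMIs of each ligand were then divided among the cell types. Macrophage-like cells held most of the UMIs of Ccl12, Ccl8, Ccl9 and Ccl6 in every group. Group means were between 85.9% and 93.5% for Ccl12, 81.3% and 91.3% for Ccl8, 74.7% and 89.4% for Ccl9 and 86.4% and 89.9% for Ccl6. Most of the Ccl3 and Ccl4 UMIs were in these cells too, with values given below. Of the UMIs of all genes, the same cells held 9.12 ± 2.04% at day 0, 48.8 ± 2.41% at day 3, 20.6 ± 4.84% at day 7 and 8.49 ± 2.14% at day 21. They were 11.1 ± 2.11% of cells at day 0 and 66.7 ± 2.80% at day 3.

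Large parts of the Ccl2 and Ccl7 UMIs were in stromal-like cells. Stromal-like cells, which are fibroblast-like cells with high Col1a1, Dcn and Pdgfra, held 60.1 ± 5.93% of the Ccl2 UMIs at day 0, 47.6 ± 4.24% at day 3 and 63.5 ± 9.05% at day 7, and macrophage-like cells held 25.6 ± 9.63%, 45.0 ± 3.49% and 23.3 ± 5.69%. At day 21 mural-like cells held 30.4 ± 11.8% of the Ccl2 UMIs, after 4.36 ± 4.43% at day 0. The level of Ccl2 in mural-like cells was 59.6, 35.1, 134 and 387 CPM at day 0 and 696, 946, 508 and 312 CPM at day 21, with overlap and no test. For Ccl7 the stromal-like share was 69.7 ± 8.71% at day 0, 47.0 ± 3.49% at day 3, 76.5 ± 4.47% at day 7 and 61.3 ± 6.59% at day 21.

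Ccl11 was in cells of connective tissue and vessel walls. Stromal-like cells held 91.5 ± 6.64% of its UMIs at day 0 and 63.5 ± 3.07% at day 3, and mural-like cells held 5.46 ± 6.73% and 29.2 ± 5.23%. Most Ccl5 was in lymphocytes and dendritic cells. T/NK lymphocyte-like cells held 94.8 ± 0.675% of its UMIs at day 0, and dendritic cell-like cells held 53.8 ± 8.79% at day 3 and 43.9 ± 0.462% at day 7. Of Ccl3 and Ccl4, macrophage-like cells held between 67.3% and 72.7% and between 59.6% and 77.4%, and granulocyte-like cells held 16.6 ± 10.5% and 18.5 ± 11.4% at day 3.

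**Figure D1:**
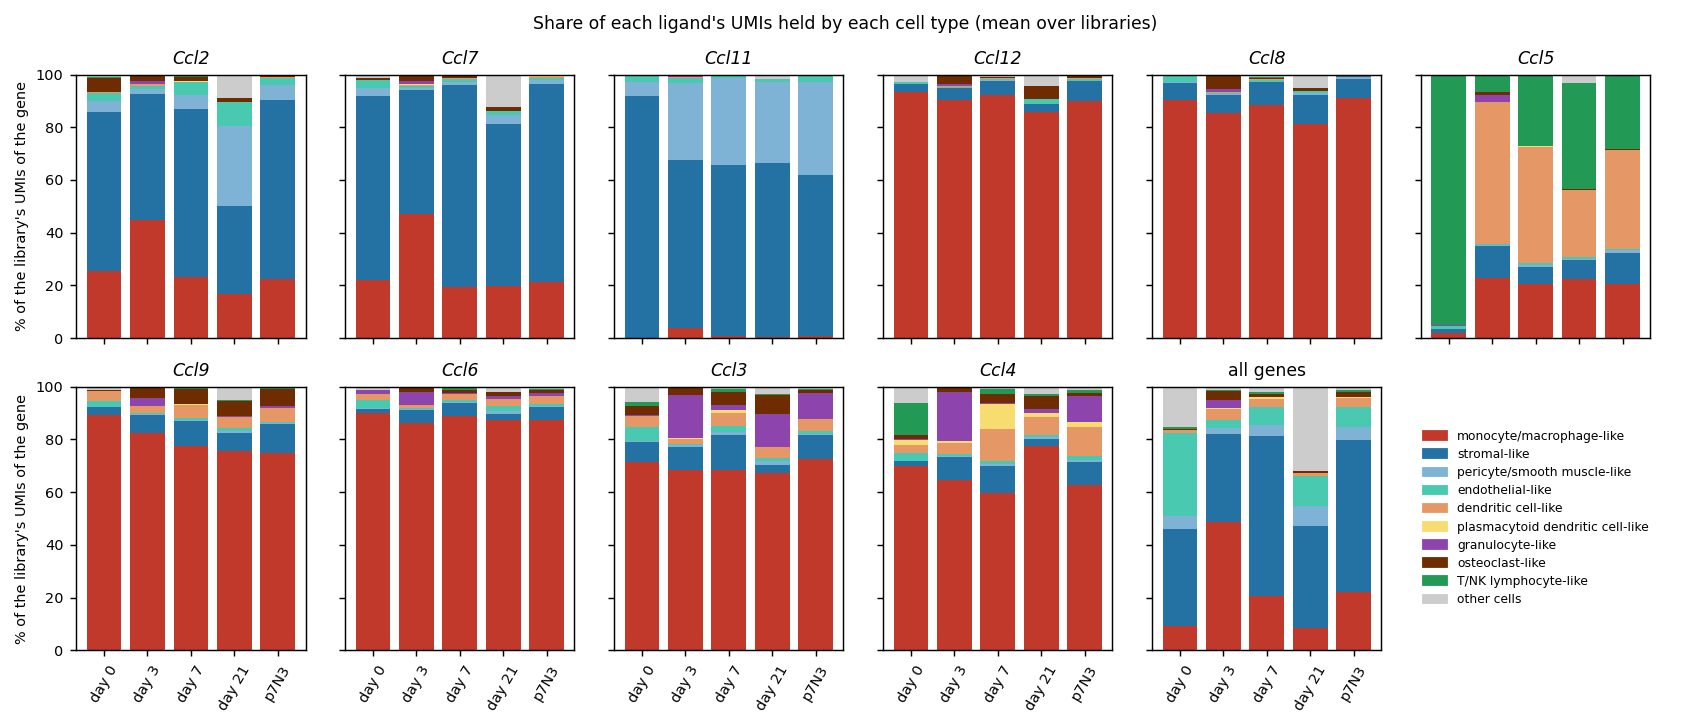
Percentage of each ligand's UMIs held by each cell type, as means over the libraries of a group in stacked bars, with the UMIs of all genes for comparison. Ccl12, Ccl8, Ccl9 and Ccl6 are mostly red (monocyte/macrophage-like) at all times, Ccl11 mostly blue (stromal-like), and Ccl2 and Ccl7 are divided between both.

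**Figure D2:**
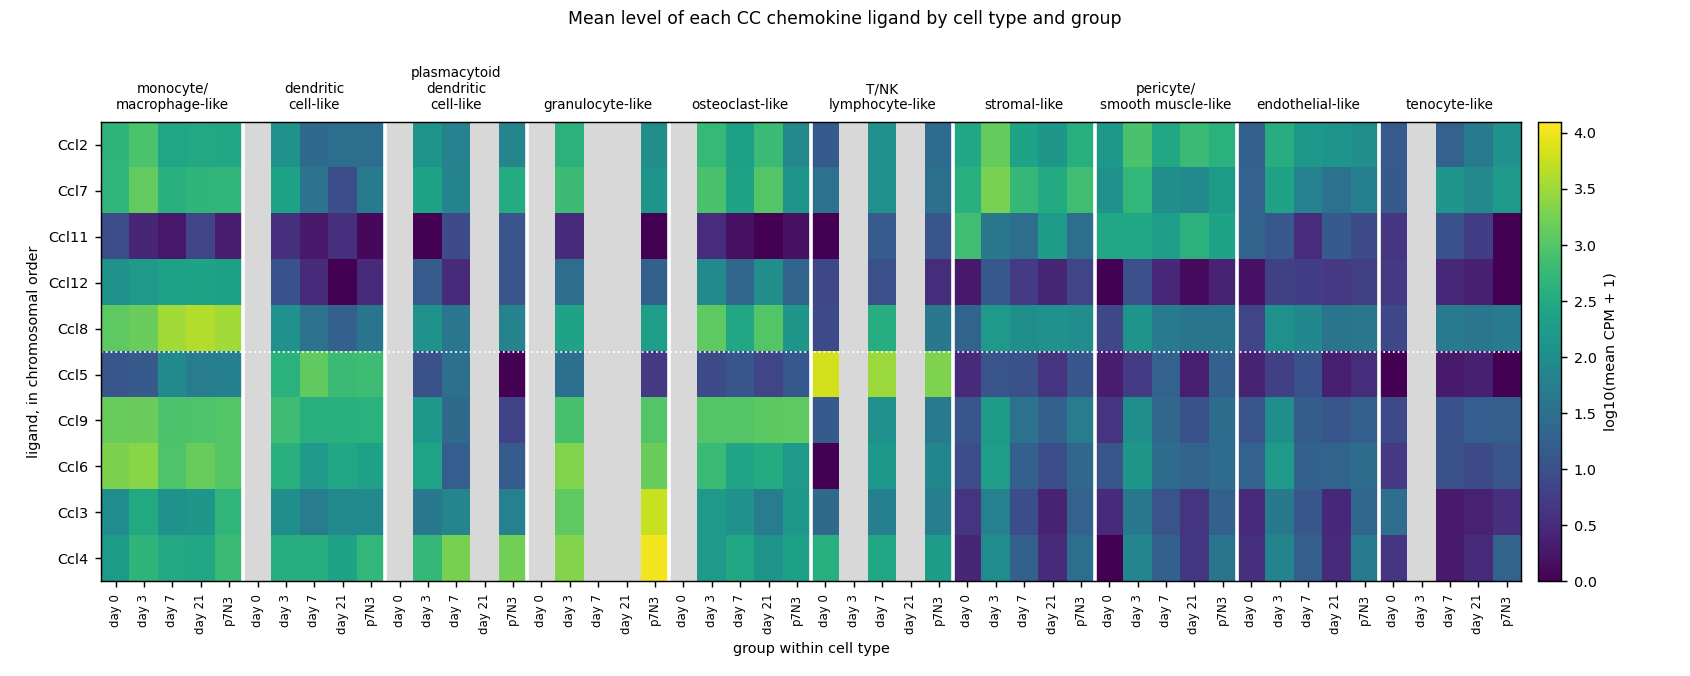
Mean level of each ligand as log10(mean CPM + 1), by cell type and group, with ligands in chromosomal order and grey where fewer than 2 libraries held at least 10 cells of the type. Ccl8, Ccl9 and Ccl6 are bright in monocyte/macrophage-like cells, Ccl5 in T/NK lymphocyte-like cells, and Ccl3 and Ccl4 in granulocyte-like cells.

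Macrophage-like and stromal-like cells were compared within libraries, with the library as a block. At day 0, 8 ligands differed between them (57.3% of all genes), at day 3 10 (79.9%), at day 7 9 (78.7%), at day 21 10 (67.0%) and with p7N3 8 (80.1%). Ccl12, Ccl8, Ccl9, Ccl6, Ccl3 and Ccl4 were higher in macrophage-like cells in all 5 groups, and Ccl11 was higher in stromal-like cells in all 5. The widest difference at day 0 was that of Ccl6, with 1978 ± 227 CPM in macrophage-like cells and 8.18 ± 1.20 CPM in stromal-like cells (log2 fold change 7.87 ± 0.14). Ccl11 was at 691 ± 131 CPM in stromal-like and 8.17 ± 8.95 CPM in macrophage-like cells (-6.09 ± 0.22).

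Ccl2 and Ccl7 changed sides. Ccl2 was higher in macrophage-like cells at day 0 (479 ± 139 against 292 ± 79.5 CPM, 0.75 ± 0.15, adjusted p = 3.48e-05) and at day 21 (302 ± 84.4 against 147 ± 118 CPM, 1.43 ± 0.19). At day 3 it was higher in stromal-like cells, at 1447, 1294 and 1330.4 CPM against 768, 936 and 911 CPM (-0.44 ± 0.07, adjusted p = 9.63e-05). Ccl7 followed, higher in stromal-like cells at day 3 (1896 ± 147 against 1297 ± 224 CPM, -0.36 ± 0.06) and in macrophage-like cells at day 21 (480.3 ± 154 against 324 ± 119 CPM, 0.75 ± 0.14). The Ccl2 call at day 7 (0.45 ± 0.14, adjusted p = 0.0102) was lost without day 7 replicate 3 (0.22).

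Within macrophage-like cells, 5 of 8 ligands tested differed between day 3 and day 0 (53.0% of all genes), 8 of 9 between day 7 and day 0 (35.4%) and 8 of 9 between day 21 and day 0 (25.4%). Between day 7 and day 3, 8 of 10 did (30.1%), and between day 21 and day 7 1 of 9 did (14.0%). The day 21 count fell to 4 without day 0 replicate 2 and to 4 without day 0 replicate 3. In a single fit of all 5 groups it fell to 2, Ccl8 and Ccl9. The share of all genes called in these other fits is not given, so the lower counts are not a result about the ligands alone. The make-up of the class shifted too. A cluster led by Cd163 and Folr2, markers of resident tissue macrophages, held 79.6% of macrophage-like cells at day 0, 2.25% at day 3, 12.2% at day 7 and 40.3% at day 21. At day 3 clusters led by Chil3 and Ly6c2 (40.5%) and by Pf4 and Mrc1 (46.0%) held most of the class. The Pf4 and Mrc1 cluster had Mrc1, Cbr2, Folr2 and Npl among its leading genes, as did the Cd163 and Folr2 cluster. The 2.25% is thus the share of a cluster, not of all cells with such markers. At day 7 clusters led by Ms4a7 and Apoe (36.3%), by H2-Eb1 and Cd74 (23.0%) and by Mmp12 and Spp1 (20.9%) did.

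**Figure D3:**
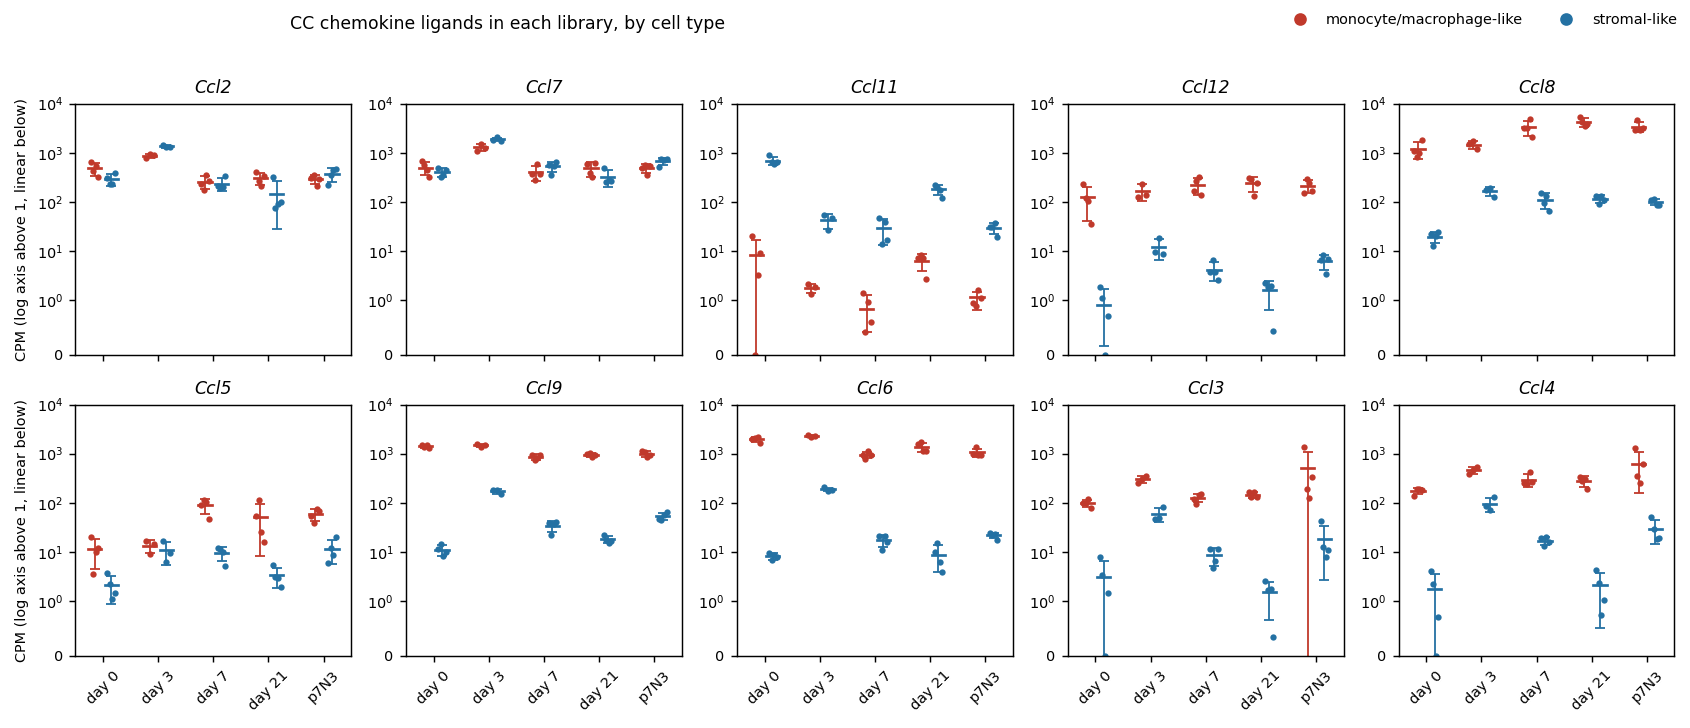
Level of each ligand (CPM, log axis above 1 and linear below) in each library, with monocyte/macrophage-like cells in red, stromal-like cells in blue, and the mean and SD as bars. Ccl2 and Ccl7 are at like levels in both cell types, Ccl11 is higher in stromal-like cells, and the others lie higher in monocyte/macrophage-like cells, with Ccl5 close between the types at day 3.

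Ccl2 and Ccl7 rose early in macrophage-like cells. Ccl2 was at 642, 421, 533 and 320.1 CPM at day 0 and at 768, 936 and 911 CPM at day 3 (0.90 ± 0.18, adjusted p = 0.000923), every day 3 library being above every day 0 library. At day 7 it was at 231, 174, 350.3 and 265 CPM, below day 3 (-1.71 ± 0.19) and below day 0 (-0.72 ± 0.20, adjusted p = 0.0104). The fall against day 0 was lost without day 0 replicate 1 (-0.45) or day 0 replicate 3 (-0.62), and that at day 21 (-0.57 ± 0.21, adjusted p = 0.0491) without day 0 replicate 1, 2 or 3 or day 21 replicate 2 or 3 (-0.62 to -0.37). Ccl7 went from 499 ± 151 CPM to 1297 ± 224 CPM at day 3 (1.42 ± 0.19). Its later levels, 402 ± 130.3 and 480.3 ± 154 CPM, did not pass the test against day 0 (-0.12 ± 0.21 and 0.05 ± 0.22).

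Within the Cd163 and Folr2 cluster alone, a comparison added after its levels were seen, both genes had another course. Ccl7 was at 671 ± 239 CPM at day 0, 1599 ± 391 CPM at day 3 and 1800.4 ± 297 CPM at day 7 (day 7 against day 0, 1.48 ± 0.18, adjusted p = 3.08e-06). Ccl2 was at 627 ± 216, 995 ± 408 and 854 ± 166 CPM (0.50 ± 0.18, adjusted p = 0.0452). For both the sign at day 7 was opposite to that of the class. The cluster held 96.8 ± 2.36% of the Ccl2 UMIs of macrophage-like cells at day 0 and 4.06 ± 2.46% at day 3, when the Pf4 and Mrc1 cluster was at 1245 ± 65.0 CPM of Ccl2 and 1963 ± 215 CPM of Ccl7.

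Ccl8 rose later and stayed up. In macrophage-like cells it was at 1084, 824, 1011 and 1842 CPM at day 0, 1486, 1719.7 and 1171 CPM at day 3, 3138, 3142, 4960.4 and 2141 CPM at day 7 and 5434, 4195, 3427 and 3764 CPM at day 21. The day 7 and day 21 libraries all lay above the day 0 libraries (1.69 ± 0.24 and 1.92 ± 0.19, adjusted p = 3.29e-05 and 1.4e-06). The day 3 level overlapped with day 0 and did not pass the test (0.34 ± 0.22, adjusted p = 0.205), but did without day 0 replicate 4 (0.74). In the Cd163 and Folr2 cluster Ccl8 rose already at day 3, from 1607 ± 644 CPM (1044 to 2508) to 7888 ± 974 CPM (6796 to 8665, 89 cells), and was at 15208 ± 365 CPM at day 7 and 10549.8 ± 2493 CPM at day 21. The log2 fold changes against day 0 there were 2.25 ± 0.19, 3.31 ± 0.18 and 2.80 ± 0.19 (adjusted p = 5.05e-08, 2.56e-11 and 4.17e-09). That cluster held 87.0 ± 3.91% of the Ccl8 UMIs of macrophage-like cells at day 21.

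Ccl12, the neighbour of Ccl8, was lower throughout. It was at 233, 119, 104 and 36.2 CPM in day 0 macrophage-like cells and at 164, 262, 317 and 137 CPM at day 7, with overlap (0.93 ± 0.34, adjusted p = 0.0418). This call was lost without day 0 replicate 2, 3 or 4 or day 7 replicate 2 or 3 (0.65 to 0.93), and that at day 21 (0.97 ± 0.32, adjusted p = 0.0344) without day 0 replicate 2, 3 or 4 or day 21 replicate 1 (0.70 to 0.94). Without day 0 replicate 1, the highest of its group, the day 3 level passed the test (1.17 against 0.35 ± 0.35 with all libraries). In the Cd163 and Folr2 cluster Ccl12 went from 167 ± 121 CPM at day 0 to 702 ± 110.3 CPM at day 3 (1.91 ± 0.31, adjusted p = 6.62e-05).

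**Figure D4:**
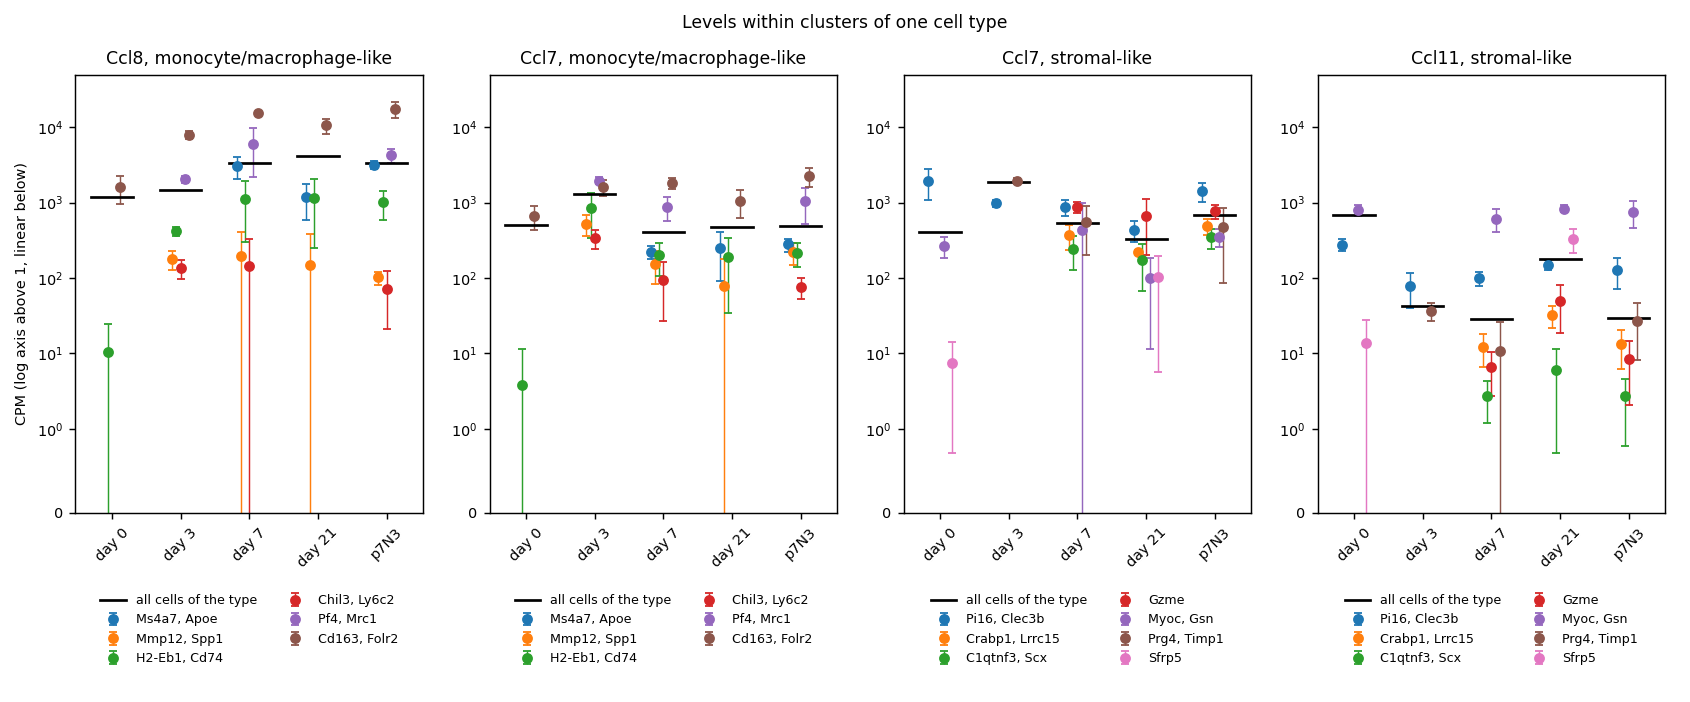
Levels of Ccl8 and Ccl7 in clusters of monocyte/macrophage-like cells and of Ccl7 and Ccl11 in clusters of stromal-like cells (CPM, log axis above 1 and linear below), as mean and SD over at least 2 libraries with at least 10 cells, with clusters named by leading genes and black lines for all cells of the type. Ccl8 is highest in the Cd163 and Folr2 cluster in each group, and Ccl11 in the Myoc and Gsn cluster in each group in which that cluster is plotted.

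Ccl11 fell in stromal-like cells. The day 0 libraries held 881, 662, 581 and 640.2 CPM, the day 3 libraries 53.8, 26.8 and 46.8 CPM, the day 7 libraries 46.1, 14.0, 38.3 and 17.0 CPM and the day 21 libraries 223, 203, 177 and 119 CPM. No later library reached the day 0 range. The log2 fold changes against day 0 were -3.91 ± 0.23, -4.54 ± 0.36 and -1.89 ± 0.18 (adjusted p = 3.35e-08, 7.59e-07 and 1.16e-05), and between day 7 and day 21 Ccl11 rose again (2.68 ± 0.37, adjusted p = 0.000808).

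The kinds of stromal-like cells changed over the same days. A cluster led by Myoc and Gsn held 86.5% of stromal-like cells at day 0, 0.481% at day 3, 0.950% at day 7 and 18.7% at day 21, while at day 3 a cluster led by Prg4 and Cxcl14 held 92.5%. Ccl11 in the Myoc and Gsn cluster was at 794 ± 133 CPM at day 0, 607 ± 205 CPM at day 7 (39 cells in 2 libraries) and 833 ± 87.2 CPM at day 21, and in the Prg4 and Cxcl14 cluster at 36.9 ± 9.95 CPM at day 3. Within the Myoc and Gsn cluster the difference from day 0 did not pass the test at day 7 (-0.41 ± 0.22, adjusted p = 0.491) or day 21 (0.08 ± 0.12, adjusted p = 0.821). Within a cluster led by Sfrp4, Clec3b and Pi16 it did at day 7 (-1.59 ± 0.19) and day 21 (-0.99 ± 0.17), where the levels were 276 ± 49.3, 99.3 ± 21.5 and 151 ± 23.0 CPM at days 0, 7 and 21. These single-cluster comparisons were also added after the levels were seen. Mural-like cells held Ccl11 at 72.4, 167, 118 and 765 CPM at day 0 and at 351, 264 and 253 CPM at day 3, above stromal-like cells in each day 3 library. Later they held 191 ± 27.8 CPM at day 7, 424 ± 142 CPM at day 21 and 238 ± 154 CPM with p7N3. Stromal-like cells held 28.8 ± 15.8, 180 ± 45.4 and 29.4 ± 7.21 CPM in these groups, each time lower without overlap.

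In macrophage-like cells Ccl11 was at 1.07% of the stromal-like level at day 0 and 4.31% at day 3, beside 0.951% and 2.83% for Col1a1 and 1.34% and 4.37% for Col3a1, collagen genes of fibroblasts. The part of RNA from other cells in it was not tested.

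Ccl5 was highest in T/NK lymphocyte-like cells, at 11283, 5844 and 3015 CPM in the day 0 libraries with at least 10 such cells and at 3017, 2593, 4753 and 1802 CPM at day 7. Dendritic cell-like cells held 275, 527 and 458 CPM at day 3 and 1121, 1629, 1629.9 and 686 CPM at day 7, all day 7 libraries being above all day 3 libraries. In macrophage-like cells Ccl5 rose from 20.4, 3.51, 9.75 and 12.1 CPM at day 0 to 89.6, 115, 101 and 46.6 CPM at day 7 (2.93 ± 0.41, adjusted p = 3.29e-05), without overlap. At day 21 it was at 53.0, 113, 25.4 and 15.97 CPM (1.97 ± 0.65, adjusted p = 0.033), a call lost without day 0 replicate 2, 3 or 4 or day 21 replicate 1 (1.75 to 1.95). At day 7 the H2-Eb1 and Cd74 cluster, led by genes of antigen presentation, held 226 ± 69.6 CPM of Ccl5. The day 0 levels of Ccl5 in macrophage-like cells rest on 21 UMIs in 4 libraries. The part of RNA from other cells in macrophage-like Ccl5 was not tested.

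Ccl9 and Ccl6 were high in macrophage-like cells before injury. Ccl9 was at 1484, 1339.9, 1518 and 1329 CPM at day 0 and at 1575, 1365 and 1482 CPM at day 3, which did not pass the test (0.11 ± 0.09). At day 7 it was at 929, 739, 807 and 958 CPM (-0.52 ± 0.11, adjusted p = 0.00141) and at day 21 at 991, 1045, 849.9 and 920.2 CPM (-0.48 ± 0.10), below every day 0 library. Ccl6 went from 1978 ± 227 CPM at day 0 to 2324 ± 119 CPM at day 3 (0.28 ± 0.10, adjusted p = 0.0242, lost without day 3 replicate 1 at 0.27) and to 938 ± 140.1 CPM at day 7 (-0.87 ± 0.12). At day 21 it was at 1382 ± 287 CPM, below day 0 (-0.42 ± 0.13, adjusted p = 0.0221). That call was lost without day 0 replicate 1, 2 or 3 or day 21 replicate 3 or 4 (-0.42 to -0.32), and within the Cd163 and Folr2 cluster the value was 0.29 ± 0.13. Ccl9 differed between the clusters and at day 7 was at 1565 ± 98.4 CPM in the Mmp12 and Spp1 cluster and 397 ± 32.2 CPM in the Ms4a7 and Apoe cluster. Osteoclast-like cells held Ccl9 at 994 ± 10.7 CPM at day 3 and 1008 ± 197 CPM at day 7.

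Ccl3 and Ccl4 rose in macrophage-like cells at day 3, and their calls at the later times depended in part on the fit. Ccl3 was at 97.1, 98.2, 120.3 and 78.5 CPM at day 0, 256, 300.2 and 356 CPM at day 3 (1.68 ± 0.16, adjusted p = 2.41e-06), 120.2, 93.6, 144 and 149 CPM at day 7 (0.57 ± 0.17, adjusted p = 0.0165) and 167, 129, 163 and 129 CPM at day 21 (0.68 ± 0.16). The day 3 and day 21 libraries lay above the day 0 libraries and those of day 7 overlapped with them. With library size in place of TMM factors the Ccl3 call at day 7 was lost (0.36). Ccl4 was at 136, 189, 189 and 178 CPM at day 0, 389, 464 and 545 CPM at day 3 (1.51 ± 0.15), 254, 237, 423 and 261 CPM at day 7 (0.99 ± 0.19) and 339, 280.0, 303 and 186 CPM at day 21 (0.80 ± 0.17). In a single fit of all 5 groups the day 21 calls of both genes (0.77 for Ccl3 and 0.89 for Ccl4) and the day 7 call of Ccl3 (0.63) were lost.

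Granulocyte-like cells held more of both at day 3, with Ccl3 at 614, 1143 and 1854 CPM and Ccl4 at 1309, 1818 and 3343 CPM in 79, 81 and 145 cells. For both genes each library lay above all macrophage-like sums of that day. Plasmacytoid dendritic cell-like cells held Ccl4 at 1215, 888, 2699 and 2505 CPM at day 7, in 19 to 52 cells per library.

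Within stromal-like cells 10 of 10 ligands differed between day 3 and day 0 (66.2% of all genes), 9 higher and Ccl11 lower. At day 7, 7 of 10 differed from day 0 (54.8%), and at day 21 3 of the 6 tested (36.9%). From day 3 to day 7, 7 fell (47.0%), and from day 7 to day 21 6 fell and Ccl11 rose (34.7%). Ccl2 went from 311, 228, 231 and 396 CPM to 1447, 1294 and 1330.4 CPM at day 3 (2.34 ± 0.17) and was at 209, 190.0, 204 and 340.3 CPM at day 7. Ccl7 went from 406 ± 79.7 CPM to 1896 ± 147 CPM at day 3 (2.34 ± 0.14). Within the Sfrp4, Clec3b and Pi16 cluster alone (107 cells at day 0 and 30 cells at day 3) the signs were opposite, -0.58 ± 0.27 for Ccl2 (adjusted p = 0.104) and -1.13 ± 0.24 for Ccl7 (adjusted p = 0.000848). At day 21 replicate 1 stood apart, with Ccl2 at 324, 76.2, 88.9 and 97.6 CPM and Ccl7 at 501, 250.1, 284 and 262 CPM in replicates 1 to 4. Without it both were below day 0 (-1.68 and -0.56), both past the threshold, and 5 ligands were called. With it neither passed (-0.94 ± 0.40 and -0.28 ± 0.21). The share of all genes called without that library is not given.

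The ligands of macrophages also rose in stromal-like sums at day 3, together with the markers of macrophages. Ccl6 went from 8.18 ± 1.20 to 187 ± 16.1 CPM (4.58 ± 0.14) and Ccl9 from 11.4, 14.6, 8.05 and 9.95 CPM to 179, 183 and 149.8 CPM (4.13 ± 0.15). As a share of the macrophage-like level, Ccl6 was at 0.418% at day 0, 8.04% at day 3, 1.82% at day 7 and 0.604% at day 21. The median of 7 core macrophage markers was 0.517%, 6.57%, 1.53% and 0.487%. The whole list of 22 markers, 19 or more of them detected in each stromal-like sum, added up to 1981 to 2317 CPM at day 0, 3339 to 4351 CPM at day 3, 4819 to 5909.5 CPM at day 7 and 3995 to 4888 CPM at day 21. Most of these sums, except at day 3, was Fn1, a gene of the extracellular matrix that stromal-like cells held above macrophage-like cells in every group, at 1567 to 1985, 998 to 1895, 3311 to 4041 and 3216 to 4332 CPM. Without Fn1, a choice made after its values were seen, the other 21 markers added up to 333 to 481 CPM at day 0, 2341 to 2781 CPM at day 3, 1478 to 2048 CPM at day 7 and 556 to 779 CPM at day 21, so that they, like the core markers, were highest at day 3. The part of RNA from other cells in the stromal-like levels of these ligands was not tested.

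Other ligands stood above the core markers. At day 3, when the highest core marker was at 8.58% of its macrophage-like level, Ccl8 was at 11.3%, Ccl9 at 11.6%, Ccl3 at 19.2% and Ccl4 at 20.5%. Ccl3 and Ccl4 were highest in granulocyte-like cells that day. The 12 granulocyte markers added up to 102 to 154 CPM in stromal-like sums at day 0 and to 1517 to 2593 CPM at day 3. The part of granulocyte RNA in the stromal-like Ccl3 and Ccl4 was not tested. At day 21 the highest core marker was at 1.36%, Ccl8 at 2.84% and Ccl9 at 1.89%. Ccl2 and Ccl7 were at 158% and 148% at day 3. Ccl8 in stromal-like cells was at 21.9, 12.4, 20.4 and 24.2 CPM at day 0, 172, 196 and 128 CPM at day 3, 153, 93.9, 130.5 and 66.4 CPM at day 7 and 134, 91.6, 130.1 and 111 CPM at day 21, all later libraries being above the day 0 libraries (3.14 ± 0.19, 2.48 ± 0.28 and 2.56 ± 0.18). Within the Myoc and Gsn cluster alone it was higher at day 21 too (from 16.3 ± 4.92 to 58.5 ± 27.6 CPM, adjusted p = 0.00018). Between the same days Ccl8 in macrophage-like cells went from 1190 ± 448 to 4205 ± 877 CPM. The part of macrophage RNA in the Ccl8 of this cluster was not tested.

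**Figure D5:**
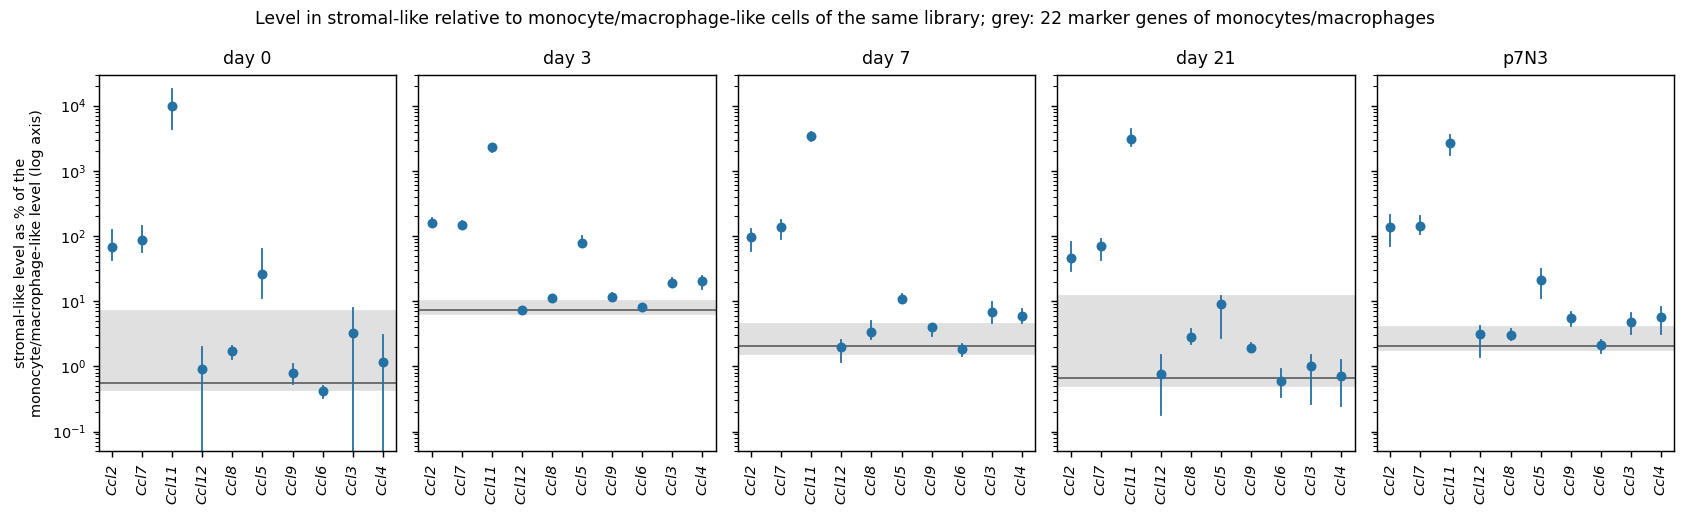
Level in stromal-like cells as a percentage of that in monocyte/macrophage-like cells of the same library (log axis, cut at the lower end), with points for means over libraries, vertical lines from the lowest to the highest library, and the median (grey line) and range from the lower to the upper quartile (grey band) of 22 monocyte/macrophage markers. Ccl6 and Ccl12 lie near the grey line, and Ccl2, Ccl7 and Ccl11 lie above the band in all 5 groups.

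The difference between the cell types in their change was tested as an interaction. At day 3, 10 of 10 ligands differed (28.5% of all genes), at day 7 5 (23.7%) and at day 21 2 (10.1%). A negative value means that macrophage-like cells rose less or fell more. At day 3 Ccl2 was at -1.35 ± 0.19, Ccl6 at -4.19 ± 0.16, Ccl9 at -3.93 ± 0.17 and Ccl11 at 1.57 ± 0.39 on the log2 scale. Ccl7 (-0.81 ± 0.16) was lost without day 0 replicate 1 (-0.45), and it and Ccl11 in DESeq2 (-0.77 and 2.01). At day 7 Ccl9 was at -2.01 ± 0.20, Ccl6 at -1.69 ± 0.20 and Ccl4 at -1.98 ± 0.46, with the median of all genes at 0.20. The day 7 count was 3 without day 0 replicate 2, 3 or 4, and the day 21 count was 4 without day 21 replicate 1 and 1 without day 0 replicate 2 or 4 or day 21 replicate 3. The share of all genes called with a library left out is not given, so these moves are not results about the ligands alone. At day 21 Ccl9 (-1.29 ± 0.19) kept its call without any 1 library, and Ccl8 (-0.63 ± 0.18) lost it without any day 0 library or day 21 replicate 3 (-0.63 to -0.47).

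Between p7N3 and day 7, 0 of the ligands passed the edgeR test at the whole site (0% of all genes), in macrophage-like cells (0%), in stromal-like cells (0.00738%) or in the difference between them (0%). At an unadjusted p below 0.05 there were 3 at the whole site (Ccl2, Ccl3 and Ccl4), 3 in macrophage-like cells (Ccl5, Ccl3 and Ccl4), 4 in stromal-like cells (Ccl2, Ccl9, Ccl3 and Ccl4) and 3 in the difference (Ccl12, Ccl5 and Ccl9). Of all genes tested, in the same order, 1827 of 14882, 865 of 10958, 2091 of 13543 and 1179 of 13447 were below it. DESeq2 called 1 ligand, Ccl9 in stromal-like cells, and 0 in the other fits. Ccl9 there was at 47.7, 45.3, 56.2 and 63.6 CPM with p7N3 and 38.5, 21.9, 36.5 and 40.1 CPM at day 7, without overlap (0.64 ± 0.17, edgeR adjusted p = 0.156). The share of all genes that DESeq2 called is not given, so its call is not a result about Ccl9 alone. Ccl8 in macrophage-like cells was at 2952, 4607, 2868 and 3184 CPM with p7N3, within the day 7 range (0.01 ± 0.22).

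The largest log2 fold change with p7N3 was that of Ccl3. Macrophage-like cells held 1345, 193, 127 and 328 CPM in p7N3 replicates 1 to 4 and 120.2, 93.6, 144 and 149 CPM at day 7 (1.97 ± 0.58, adjusted p = 0.389). Without p7N3 replicate 1 the value was 0.75. In replicate 1 the Mmp12 and Spp1 cluster was at 3548 CPM of Ccl3, and in replicates 2 to 4 at 281, 83.4 and 472 CPM. Of its 384 cells in replicate 1, 50.0% had a Ccl3 UMI, against 25.1%, 18.8% and 25.4% in replicates 2 to 4 and 16.1% to 25.1% at day 7. The 39 cells with the most held 84.2% of its Ccl3 UMIs in replicate 1. In replicates 2 to 4 the 37, 17 and 27 cells with the most held 90.7%, 84.1% and 93.8%. Granulocyte-like cells were at 6641, 9775 and 849.9 CPM of Ccl3 in the p7N3 libraries with at least 10 of them (15, 18 and 19 cells).

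Of 24 other genes of the CC chemokine system (ligands, receptors and atypical receptors), 14 could be tested at the whole site at day 3, of which 5 rose and 6 fell (74.6% of all genes differed). The receptors Ccr2 (3.77 ± 0.27) and Ccr1 (3.71 ± 0.34) rose. In macrophage-like cells at day 3, Ccr2 (1.33 ± 0.16) and Ccr1 (0.98 ± 0.20) rose too, and the eosinophil ligand Ccl24 fell from 527 ± 82.4 to 31.4 ± 1.81 CPM (-4.01 ± 0.14). At day 7, 2 of 8 rose and 1 fell (35.4% of all genes differed), and at day 21 1 of 4 rose and 1 fell (25.4%), Ccl24 being the one that fell (-3.27 ± 0.16 and -2.07 ± 0.20). In stromal-like cells 4 of 11 rose and 4 fell at day 3 (66.2% of all genes differed), 4 of 12 rose and 5 fell at day 7 (54.8%), and 0 of 7 rose and 3 fell at day 21 (36.9%). The atypical receptor Ackr2, which removes inflammatory chemokines, went from 14.2 ± 1.54 to 0.395 ± 0.147 CPM at day 3 (-5.04 ± 0.32) and was still lower at day 21 (-3.00 ± 0.28). Ackr1 was lower at day 7 (-3.38 ± 0.31) and day 21 (-2.04 ± 0.28). Those that rose in stromal-like cells at day 3 included Ccr1 (from 0 to 17.3 ± 4.04 CPM) and Ccr2 (from 0.643 ± 0.493 to 26.3 ± 1.55 CPM). In macrophage-like cells of that day Ccr1 was at 186 ± 14.8 CPM and Ccr2 at 516 ± 18.9 CPM. The part of RNA from other cells in the stromal-like Ccr1 and Ccr2 was not tested. The clusters that made up macrophage-like and stromal-like cells shifted over the same days. Levels of these other genes within clusters are not given, and the part of that shift in their changes was not tested. With p7N3, edgeR called 0 of 17 at the whole site, 0 of 9 in macrophage-like cells and 0 of 13 in stromal-like cells.

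Likeness was measured as the Pearson r of log2(CPM + 1) over 49 means, each of 1 cell type in 1 group, among 13582 genes. The means share libraries, so r is a description. Ccl2 and Ccl7 were each other's nearest gene (0.82). Ccl12 was closest to the complement genes C1qc (0.94) and C1qa (0.93), and Ccl8 to Trem2 (0.90) and Lgmn (0.90). Ccl6 was closest to Igsf6 (0.95) and Ccl9 to Lrrc25 (0.94). Ccl3 was closest to Lilrb4a (0.94) and Ccl4 to Tyrobp (0.96). Ccl5 was closest to Klrb1b (0.89), a gene of natural killer cells, and Ccl11 to Aoc3 (0.90). Among members the nearest to Ccl12 was Ccl8 (0.89), to Ccl9 it was Ccl6 (0.91) and to Ccl3 it was Ccl4 (0.88), while the nearest to Ccl11 was Ccl2 at 0.31.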

How the data were processed

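Single-cell 3′ RNA libraries (10x chemistry) from the tenotomy site had been aligned to mm10 and counted by the authors with Cell Ranger, per the labels and methods. The labels of replicates 1 to 3 name GRCh38, but their gene identifiers are those of the mouse. The deposited files hold raw UMI counts per gene and cell barcode, not normalized, and 1 of 19 (day 0 replicate 1) also holds empty droplets. Replicate 4 of each group that has one is from a later submission.

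As in the study, barcodes under 500 genes or over 25% mitochondrial UMIs were left out. Clustering used scanpy 1.11.5 (2000 variable genes, 30 principal components, 20 neighbours, Leiden resolution 0.8, 30 clusters) with 34 genes, members included, kept out of the variable genes. A list needed 3 markers, each in at least 25% of a cluster's cells and 2-fold over the median cluster. A cluster took the list with the most markers among its 10 leading genes, if at least 2 were there. Otherwise, or with equal numbers, it took the list with the most markers, and then the highest mean fold. That naming score was set after the clusters were seen, and cell type names are rebuilt, not the authors'. No doublets were removed in the results given, since Scrublet called too few cells to be used. The UMIs of a cell type in a library (10 cells or more) were added up and these sums tested in edgeR 4.0.16 (R 4.3.3; TMM factors, filterByExpr, quasi-likelihood test, Benjamini-Hochberg adjustment over all genes, threshold 0.05), with the library as a block for comparisons between cell types. SE is the absolute log2 fold change over the square root of F. CPM uses all UMIs of a sum, without TMM factors, and log2 fold changes come from edgeR.

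DESeq2 1.42.0, other size factors, filters and clusterings, each library left out and single-cluster fits (added after the data were seen) served as alternatives. Members and lists were chosen with earlier results of these data known. All 10 members entered every comparison in which they passed the filter on low counts. Some comparisons give a count only, and not every ligand called is named. Of the other CC chemokine genes, those named were among the 5 with the largest change past the threshold and at least 10 CPM, and 3 of them that have more than 1 entry in the files were not named. Not every gene of that list is reported here. Of the genes most like a member, those named were among the 3 with the highest r. The peptide dose and days are those of the labels. The replicate numbers were not used to pair libraries. Deviations of same-numbered libraries from their group means correlated at -0.405 to 0.348, and in no comparison did every such pair correlate over 0.1. Pairs with different numbers were not set beside them, so these values cannot say whether some libraries are paired. Library totals were 3019467 to 39870492 UMIs, and counting error only is covered by any count.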

Additional observations from a re-analysis of the deposited data

Results flagged for a closer look

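Of 120 groups of 4 libraries (the 10 ligands at the whole site, in macrophage-like and in stromal-like cells), 11 held a library whose gap to its nearest neighbour was above Dixon's 95% limit, where chance gives about 1 in 20. At the whole site these were Ccl7 in day 21 replicate 1 (295 CPM), Ccl5 in day 0 replicate 1 (108 CPM) and Ccl3 in p7N3 replicate 1 (411 CPM). In macrophage-like cells they were Ccl6 in p7N3 replicate 2 (1365 CPM), Ccl3 in p7N3 replicate 1 (1345 CPM) and Ccl4 in day 7 replicate 3 (423 CPM). In stromal-like cells they were Ccl2 in day 7 replicate 4 (340.3 CPM), Ccl2 and Ccl7 in day 21 replicate 1 (324 and 501 CPM), Ccl7 in p7N3 replicate 1 (525 CPM, the lowest of its group) and Ccl3 in p7N3 replicate 1 (41.9 CPM). p7N3 replicate 1 thus stood apart for Ccl3 in all 3 kinds of sum, and day 21 replicate 1 for Ccl7 in 2 of them. The sums of macrophage-like and stromal-like cells of a library are parts of its whole-site sum, so these are not separate observations.

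The change of a ligand differed between macrophage-like and stromal-like cells in 17 of 40 tests of the interaction (edgeR, adjusted p below 0.05). Of all genes tested, 28.5% differed at day 3, 23.7% at day 7, 10.1% at day 21 and 0% with p7N3. At day 3 the difference (macrophage-like minus stromal-like, log2) was -1.35 for Ccl2, -0.81 for Ccl7, 1.57 for Ccl11, -3.34 for Ccl12, -2.67 for Ccl8, -2.14 for Ccl5, -3.93 for Ccl9, -4.19 for Ccl6, -2.39 for Ccl3 and -4.10 for Ccl4. At day 7 it was 1.41 for Ccl11, -0.54 for Ccl8, -2.01 for Ccl9, -1.69 for Ccl6 and -1.98 for Ccl4. At day 21 it was -0.63 for Ccl8 and -1.29 for Ccl9. Macrophage markers in the stromal-like sums moved over the same days, and their part in these differences was not tested.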

How the results depend on the processing

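Of 239 ligand values, DESeq2 kept the direction and side of the threshold of 226, RLE factors of 236, library size alone of 227 and removal of the top 3.9% of doublet scores of 230 of 238. No sign of a called value turned in these. Leaving out 1 library kept 1546 of 1644.

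The sign of a value called in the main fit or in the alternative turned only in single-cluster fits. Of the values below, the main fits did not call Ccl7 at day 7 against day 0 in either cell type. They also called none of those at day 21 against day 7. In the Cd163 and Folr2 cluster, day 7 against day 0 gave 0.50 for Ccl2 and 1.48 for Ccl7, day 21 against day 0 gave 0.29 for Ccl6, day 7 against day 3 gave 0.27 for Ccl7, 0.24 for Ccl3 and 1.72 for Ccl4, and day 21 against day 7 gave -0.77 for Ccl7, -0.70 for Ccl12, -0.53 for Ccl8 and -1.27 for Ccl3. In the Pi16 and Clec3b cluster, day 3 against day 0 gave -0.58 for Ccl2 and -1.13 for Ccl7, and day 7 against day 0 gave -1.26 for Ccl7. In the Myoc and Gsn cluster, day 21 against day 0 gave 0.082 for Ccl11. These fits rest on fewer cells, and the cause was not tested.

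Counts of ligands called moved as follows. The share of all genes called in each of these fits is not given, so a moved count is not a result about the ligands alone. In macrophage-like cells, day 3 against day 0 gave 9 with no filter (more genes tested). Day 21 against day 0 gave 2 in a single fit of all groups, 4 in the Cd163 cluster and 4 to 7 with 1 library left out. Day 7 against day 3 gave 5 in the Cd163 cluster. Day 21 against day 7 gave 3 with no filter, 2 with replicates 1 to 3, with the replicate block, with a single fit and at Leiden resolution 2, 8 in the Cd163 cluster and 1 to 2 with 1 library left out. p7N3 gave 1 with no filter (Ccl3). In stromal-like cells, day 3 against day 0 gave 5 in the Pi16 cluster. The Myoc cluster gave 1 at day 7, 1 at day 21 and 0 for day 21 against day 7 (too few cells at day 3 to fit). Day 21 against day 0 gave 3 to 5 with 1 library left out, and p7N3 gave 1 in DESeq2 (Ccl9). The difference between cell types gave 3 at day 7 in DESeq2, with replicates 1 to 3 and with no replicate block, and 3 to 7 with 1 library left out. At day 21 it gave 1 in DESeq2, 6 with no filter, 1 with replicates 1 to 3, 4 at no more than 10% mitochondrial UMIs, 1 with no replicate block and 1 to 4 with 1 library left out. With p7N3 it gave 3 with no filter.

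The replicate number as a block changed the side of the threshold of 10 of 150 values, of which 10 became called and 0 lost a call. Whether the numbers stand for a shared animal or day is not known. Library size in place of TMM factors moved the median log2 of all genes at the whole site by -0.35 at day 3, -0.18 at day 7 and -0.17 at day 21. The 70 to 136 macrophage-like cells per day 0 library limit the day 0 levels of the less abundant ligands.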
